A study of Mus musculus with 9 samples.

Results

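The genes described here encode 9 proteins through which the epithelium of the intestinal crypt can act on lymphocytes: the butyrophilin-like proteins Btnl1, Btnl2, Btnl4 and Btnl6, the checkpoint ligands Cd274, Tnfrsf14 and Ceacam1, and the adhesion ligands Icam1 and Cdh1. They were chosen by gene symbol, each symbol matched 1 Ensembl identifier, and all 9 were found among the 29288 genes of the count table. All 9 also passed the low-count filter that left 18933 genes for testing. To follow how intestinal epithelial cells (IECs) respond to activation of natural killer T (NKT) cells in vivo, bulk RNA-seq had been performed on IECs from crypts of the proximal small intestine, sorted live as EpCAM+ cells negative for Ter119, CD31 and CD45. All mice were female wild-type C57BL/6J animals, 1 mouse per library, and young adults by the age range in the study's methods, with no age given for each library. The control group comprised 3 mice that received PBS and were sampled at 18 h. The 18h-αGal group comprised 3 mice sampled 18 h after an intraperitoneal injection of 2 µg of α-galactosylceramide (αGalCer), the lipid that CD1d presents to NKT cells. The 72h-αGal group comprised 3 other mice sampled 72 h after the same injection, and since every control was taken at 18 h, treatment and time of sampling cannot be told apart at 72 h.

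Lymphocytes that live within or just beneath the gut epithelium are kept, restrained or held in place by proteins on the epithelial surface. Butyrophilin-like proteins of gut epithelium act on the γδ T cell receptor of intraepithelial lymphocytes, checkpoint ligands engage inhibitory receptors such as PD-1, BTLA and TIM-3, and adhesion ligands bind lymphocyte integrins. In many cell types, interferons and NF-kB signalling raise Cd274 and Icam1, whereas Btnl genes are known as genes of the maturing enterocyte.

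Total counts per library ranged from 8887861, in control replicate 3, to 32722293, a 3.68-fold range. Control replicate 3 also stood apart in cell type markers: its 16 enterocyte markers summed to 440300 normalised counts, against 172400 and 256700 in the other controls, and its 10 stem cell markers summed to 47960, against 76420 and 90990. For the 9 ligand genes, calls that rest on this library are therefore given with and without it. Marker sums and fold changes of genes outside the 9 are given with it only. The epithelial label held: Epcam had between 16280 and 22720 normalised counts in every library, and all 9 epithelial defining markers were above 0 in each. Markers of other cells were also detected. The 17 lymphocyte markers with a row in the count table summed to 107 to 153.8 normalised counts in controls, 45.53 to 119.8 in 18h-αGal and 64.02 to 243.3 in 72h-αGal mice, with Ptprc, which encodes CD45, at no more than 57.92. Of these lymphocyte markers, between 4 and 12 were at 0 in a library, and Cd3e was at 0 in all 3 controls and 2 of the 18h-αGal mice but at 24.33, 8.068 and 1.472 in the 72h-αGal mice. The 13 myeloid markers summed to between 605.7 and 1087 over all libraries, with Cd68 at up to 751, Cd14 at up to 247 and Itgam at up to 69, all above 0 in every library, and Adgre1 at 0 in 7 of 9. The 9 stromal markers with a row summed to no more than 123.9. The part of these other cells in the results below was not tested. In bulk RNA, a change in the share of cells that make a transcript and a change in the transcript per cell cannot be told apart.

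The 9 genes spanned about 3 orders of magnitude of expression. Levels of different genes are compared here as TPM, a measure that corrects the counts for the merged exon length of each gene and for depth. In controls, Cdh1 (E-cadherin, the adhesion molecule of the epithelial adherens junction and ligand of the integrin αEβ7) was the highest at 1177 ± 52.9 TPM (SD, n = 3), rank 55 of 28480 genes. Ceacam1, a homophilic adhesion molecule that is also a ligand of TIM-3, followed at 514.4 ± 26.7 TPM, rank 153. The Btnl genes were next, with 257.5 ± 108 TPM for Btnl6, 185 ± 48.4 for Btnl1, 110.4 ± 39.5 for Btnl2 and 95.45 ± 21.8 for Btnl4. Tnfrsf14, which encodes the herpesvirus entry mediator HVEM, the epithelial partner of BTLA, CD160 and the cytokine LIGHT, reached 35.56 ± 4.87 TPM. Cd274, which encodes PD-L1, had 1.823 ± 0.637 TPM, and Icam1, the ligand of the leukocyte integrin LFA-1, had 0.83 ± 0.354 TPM, ranks 16110 and 19027. Within controls, the ranges of Btnl6 and Btnl1, of Btnl2 and Btnl4, and of Cd274 and Icam1 overlapped. Within each control library, however, Btnl6 was above Btnl1 (194.2, 196.5 and 381.8 against 158.4, 155.8 and 240.8 TPM). The order of the other pairs turned between libraries: Btnl2 was below Btnl4 in control replicate 2 (81.46 against 84.21 TPM), and Cd274 below Icam1 in control replicate 3 (1.15 against 1.202 TPM). The other neighbouring genes in the order had separate ranges. In 18h-αGal mice Cd274 reached 7.094 ± 0.938 TPM and Icam1 3.712 ± 0.963 TPM, and both remained below the lowest Tnfrsf14 value of 34.33 TPM in that group.

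**Figure D1:**
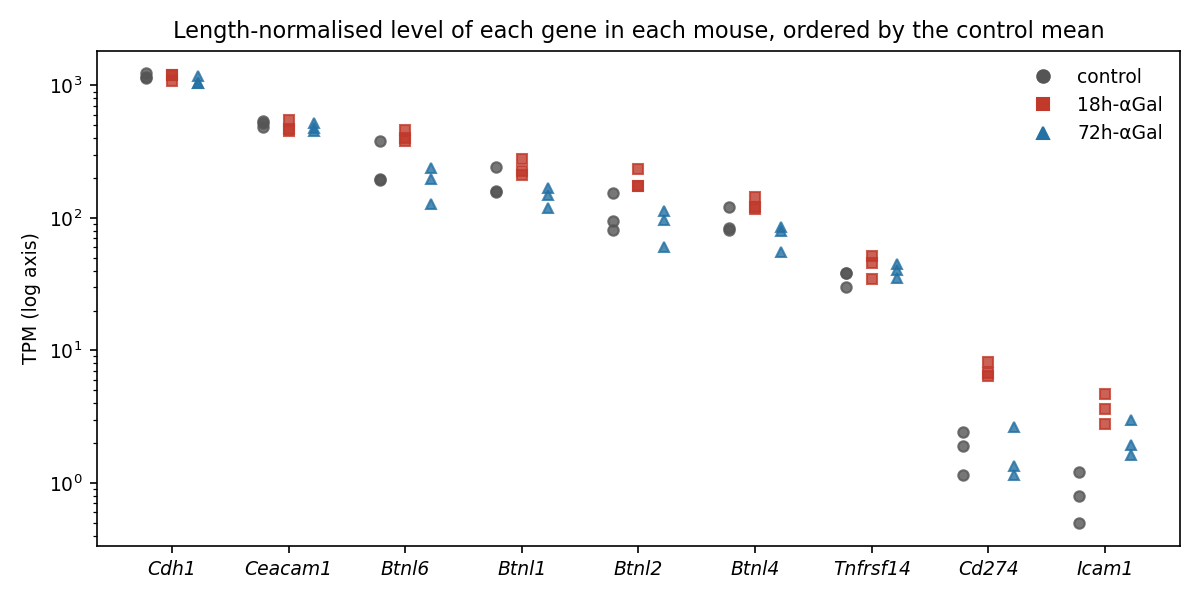
Length-normalised level (TPM, log axis) of each of the 9 genes in each of the 9 mice, ordered by the mean of the 3 controls; circles are control, squares 18h-αGal and triangles 72h-αGal mice. Cdh1 lies near 1177 TPM and Icam1 near 0.83 TPM in controls, and the 18h-αGal points of Cd274 and Icam1 lie above all control points of the same gene.

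The position of each gene is given on GRCm39 from GENCODE vM39. Cd274 is on chromosome 19 (29344529 to 29365495, plus strand), Icam1 on chromosome 9 (20926672 to 20940113, plus strand), Tnfrsf14 on chromosome 4 (155005126 to 155013020, minus strand), Ceacam1 on chromosome 7 (25161128 to 25177257, minus strand) and Cdh1 on chromosome 8 (107329941 to 107396880, plus strand). The Btnl genes lie together on chromosome 17 within the major histocompatibility complex, with Btnl2 (34573796 to 34589290) and Btnl1 (34596106 to 34605002) on the plus strand and Btnl4 (34685536 to 34696292) and Btnl6 (34726778 to 34736326) on the minus strand.

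Sequence upstream of the start was read for 8 of the 9 genes from RefSeq on GRCm38.p6, so that its coordinates must not be set against the GRCm39 positions above. Cdh1 had no entry. Each window of 250 bases before the annotated start was searched on both strands for TTCNNNGAA (the GAS element, an interferon-response element), GAAANNGAA (the core of the ISRE bound by IRF factors), GGNNNTTCC (part of the NF-kB consensus), CAAAGTCCA (an HNF4 element) and TTTATNG (a CDX element). The 2 genes that rose at 18 h, Cd274 and Icam1, and Tnfrsf14, which did not pass the test but held the same motif as Cd274, are shown as the 30 bases around each match, 5′ to 3′ on the strand of the gene, with the match in capitals. Cd274 held an ISRE core on its reverse strand, 76 to 68 bases before the start, and Tnfrsf14 held another 63 to 55 bases before its start. Icam1 held a GAS match 42 to 34 bases before the start and 2 NF-kB matches, 153 to 145 and 84 to 76 bases before it.
Cd274, ISRE core, chr19:29367351-29367380, plus strand: gactgggtggcTTCGGTTTCacagacagcg
Tnfrsf14, ISRE core, chr4:154928122-154928151, minus strand: ctattttttctTTCATTTTCacttttcctt
Icam1, GAS, chr9:21015887-21015916, plus strand: aggcgcgaggtTTCCCGGAAagtggccccg
Icam1, NF-kB, chr9:21015776-21015805, plus strand: tacttcagtttGGAAATTCCtagatcgcag
Icam1, NF-kB, chr9:21015845-21015874, plus strand: agtctccacccGGAAATACCgaagccctcg
Among 32851 RefSeq promoters of the same length, 7.02% held the GAS letters, 7.13% the ISRE core and 15.7% the NF-kB letters. A match of letters is a description and does not show that a factor binds there, and GENCODE vM39 also lists longer transcripts of Cd274, Icam1 and Tnfrsf14 that read through all or part of these windows.

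The windows of the 4 Btnl genes are shown whole, since these genes are neighbours whose counts varied in parallel across the mice (described below). The windows lie before RefSeq starts, and for Btnl4 GENCODE vM39 places the start of the gene further upstream. By the shift between builds that the other Btnl genes share, the Btnl4 window falls within the GENCODE gene. The windows of Btnl4 and Btnl6 were identical at 228 of 252 aligned columns (90.5%), whereas the other pairs of Btnl windows were between 51.6% and 52.9% identical. Capitals mark the only match in these windows, an HNF4 element 41 to 33 bases before the start of Btnl2, whose letters occurred in 0.384% of all promoters. No member window held the CDX letters, which occurred in 9.81% of all promoters, and Ceacam1 held none of the 5 motifs.
Btnl1, chr17:34376882-34377131, plus strand: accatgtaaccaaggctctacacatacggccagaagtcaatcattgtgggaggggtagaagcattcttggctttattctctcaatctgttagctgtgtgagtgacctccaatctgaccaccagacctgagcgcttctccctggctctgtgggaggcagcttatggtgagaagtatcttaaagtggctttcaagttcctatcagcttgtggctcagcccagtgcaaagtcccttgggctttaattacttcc
Btnl2, chr17:34354572-34354821, plus strand: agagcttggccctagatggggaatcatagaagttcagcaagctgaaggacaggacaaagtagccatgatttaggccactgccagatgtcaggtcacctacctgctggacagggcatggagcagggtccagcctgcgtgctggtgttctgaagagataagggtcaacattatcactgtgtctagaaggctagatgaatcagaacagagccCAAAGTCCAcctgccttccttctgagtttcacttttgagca
Btnl4, chr17:34475938-34476187, minus strand: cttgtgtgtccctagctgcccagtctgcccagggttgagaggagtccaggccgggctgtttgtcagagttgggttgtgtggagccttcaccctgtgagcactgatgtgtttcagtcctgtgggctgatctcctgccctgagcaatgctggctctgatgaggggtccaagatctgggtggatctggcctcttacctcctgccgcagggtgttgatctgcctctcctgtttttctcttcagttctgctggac
Btnl6, chr17:34517353-34517602, minus strand: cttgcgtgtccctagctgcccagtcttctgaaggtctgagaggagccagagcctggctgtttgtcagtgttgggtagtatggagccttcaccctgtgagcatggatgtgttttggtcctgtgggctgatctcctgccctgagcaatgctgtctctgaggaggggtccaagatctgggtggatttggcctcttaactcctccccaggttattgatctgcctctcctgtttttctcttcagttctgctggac

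The first comparison asked which of these ligands differed 18 h after αGalCer. Cd274 and Icam1 rose and the other 7 genes did not pass the test. Of all genes tested, 5.96% were called (quasi-likelihood test of edgeR, threshold of 0.05 on the Benjamini-Hochberg adjusted p), and 3.27% were called higher, against 2 of the 9 ligand genes. The replicates of the 2 groups did not overlap in 23.8% of all genes tested and in the same 2 of the 9 ligand genes. The median log2 fold change of the 9 genes was 0.41, beside -0.03 over all genes tested, with 7 of the 9 above 0.

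Values of single genes are the authors' normalised counts, which are raw counts divided by 1 size factor per library. For Cd274, whose product PD-L1 restrains T cells through PD-1, these were 39.35, 45.56 and 26.15 in controls 1 to 3. In 18h-αGal mice they were 163.9, 129.4 and 146.3. The lowest 18h-αGal value was thus above the highest control value, and the log2 fold change was 1.96 ± 0.42 (SE; 95% interval 1.06 to 2.86), a 3.9-fold difference with an edgeR adjusted p of 0.0137. Behind these values stood 11 to 67 reads per control library and 106 to 260 reads per 18h-αGal library. Without control replicate 1 the log2 fold change was 2.00 and the edgeR adjusted p was 0.0542, the only alternative of 15 in which the call was lost.

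Icam1 is the adhesion ligand by which leukocytes hold on to epithelium and endothelium. Its normalised counts were 19.97, 11.39 and 33.28 in controls and 88.27, 115.9 and 74.51 in 18h-αGal mice. The groups again did not overlap, and the log2 fold change was 2.18 ± 0.50 (95% interval 1.11 to 3.25), a 4.52-fold difference with an edgeR adjusted p of 0.0191. Control libraries held 12 to 34 reads of Icam1 and 18h-αGal libraries 54 to 140. The call was lost in 3 of 15 alternatives, with edgeR adjusted p-values of 0.0786 without control replicate 1, 0.0712 without control replicate 2 and 0.097 without 18h-αGal replicate 2, and log2 fold changes between 1.87 and 2.54 over all alternatives. Icam1 is also abundant on endothelium, and the 10 endothelial markers summed to 126 to 221.2 normalised counts in controls, to 99.34 to 106.9 in 18h-αGal mice and to 167.4 to 208.3 in 72h-αGal mice. Pecam1, which encodes the CD31 used to exclude endothelium in the sort, lay between 31.13 and 47.46 in controls and between 12.58 and 20.7 in 18h-αGal mice. The part of endothelial RNA in the Icam1 values was not tested.

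**Figure D2:**
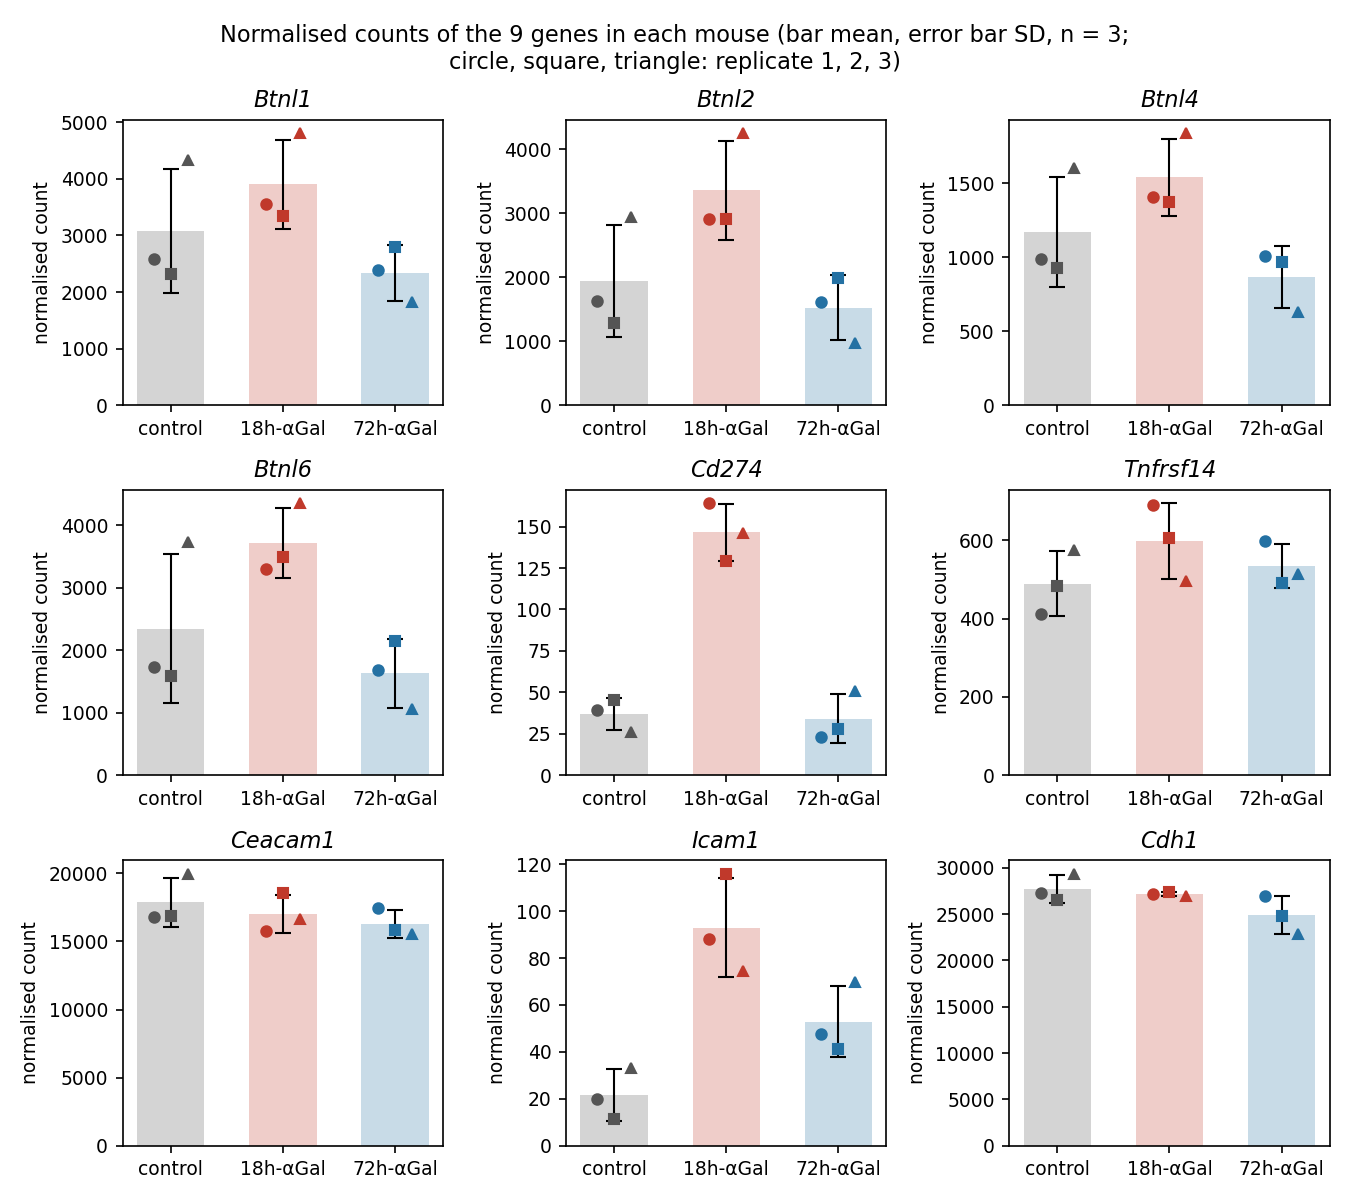
Normalised count of each of the 9 genes in each mouse, 1 panel per gene with its own axis from 0; bars are group means, error bars SD (n = 3), and circles, squares and triangles are replicates 1, 2 and 3. Cd274 and Icam1 were higher in all 3 18h-αGal mice than in any control, whereas control replicate 3 lay within the 18h-αGal range for Btnl1, Btnl2, Btnl4 and Btnl6.

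The result for the Btnl genes rested on 1 control library. Btnl1 and Btnl6 form the heteromer that sustains the main γδ intraepithelial lymphocyte population of the mouse small intestine, Btnl4 is a close relative of Btnl6, and Btnl2 is known as an inhibitor of T cell activation. Btnl6 had 1724, 1590 and 3725 normalised counts in controls and 3300, 3485 and 4345 in 18h-αGal mice. Btnl1 had 2590, 2322 and 4329 in controls and 3564, 3344 and 4810 in 18h-αGal mice. Controls 1 and 2 lay below every 18h-αGal mouse for both genes, and control replicate 3 lay among the 18h-αGal mice. Btnl2 repeated the pattern with 1619, 1275 and 2931 in controls and 2900, 2910 and 4247 in 18h-αGal mice. Btnl4 did so with 984.4, 926.4 and 1600 in controls and 1409, 1372 and 1838 in 18h-αGal mice. Control replicate 3 exceeded the mean of controls 1 and 2 by 1.76-fold for Btnl1, 2.03-fold for Btnl2, 1.67-fold for Btnl4 and 2.25-fold for Btnl6.

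With all 9 libraries, none of the 4 Btnl genes passed the test at 18 h. The log2 fold change was 0.35 ± 0.24 for Btnl1, 0.80 ± 0.36 for Btnl2, 0.41 ± 0.22 for Btnl4 and 0.68 ± 0.37 for Btnl6 (SE), with edgeR adjusted p-values between 0.261 and 0.456. The 95% intervals ran from -0.18 to 0.89 for Btnl1 and from -0.04 to 1.64 for Btnl2, so that a more than 1.5-fold rise was within both. Without control replicate 3, all 4 passed, with 1.59-fold for Btnl1 (edgeR adjusted p = 0.0344), 2.31-fold for Btnl2 (0.0456), 1.61-fold for Btnl4 (0.0392) and 2.24-fold for Btnl6 (0.0187). In that fit 6 of the 9 ligand genes were called higher, where 4.25% of 20326 genes tested were. None of the other 14 alternatives called any Btnl gene at 18 h.

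Within groups, the summed Btnl counts were higher where enterocyte markers were higher, and highest where stem cell markers were lowest. The 4 genes together had 6918, 6113 and 12590 normalised counts in controls, 11170, 11110 and 15240 in 18h-αGal mice and 6680, 7905 and 4487 in 72h-αGal mice. In each group the library with the highest Btnl sum was the highest in enterocyte markers and the lowest in stem cell markers. Those 3 libraries were control replicate 3, 18h-αGal replicate 3 and 72h-αGal replicate 2, with enterocyte marker sums of 440300, 370300 and 217200 and stem cell marker sums of 47960, 14710 and 61800. Between groups, the enterocyte sums of control (172400 to 440300) and 18h-αGal (234200 to 370300) mice overlapped. The only 1 of the 16 enterocyte markers called at 18 h in edgeR was Mep1a, which encodes a brush border metalloprotease, and it was lower than in controls, at a log2 fold change of -2.53 ± 0.22 (edgeR adjusted p = 4.08e-05; called in all 15 alternatives). As a percentage of the enterocyte marker sum, the Btnl sum was 2.69%, 3.55% and 2.86% in controls, 4.1%, 4.75% and 4.12% in 18h-αGal mice and 3.84%, 3.64% and 4.02% in 72h-αGal mice. On this ratio, which was chosen after the values were seen and was not tested, control replicate 3 lay with the other controls and no 18h-αGal mouse overlapped them, but the 72h-αGal mice also lay above all controls. The stem cell sums of the 18h-αGal mice, 14710 to 45850, were below every control (47960 to 90990), and the median log2 fold change of the 10 genes was -1.06. In edgeR none of these 10 was called at 18 h, with 4 lower at an unadjusted p under 0.05. Over all genes tested, 3947 of 18933 had such a p in either direction. DESeq2 and limma each called Axin2 and Slc12a2 lower. The part of cell composition in the Btnl values was not tested.

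**Figure D3:**
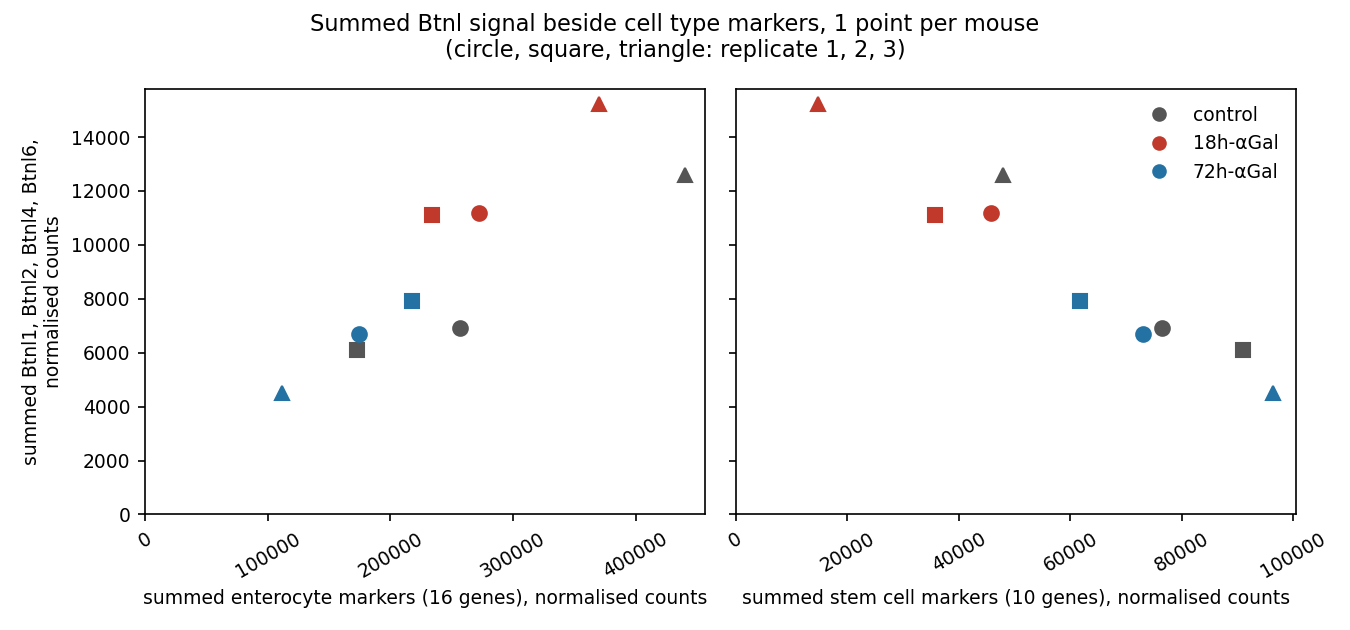
Summed normalised counts of Btnl1, Btnl2, Btnl4 and Btnl6 (vertical axis) against the summed normalised counts of 16 enterocyte markers (left) and 10 stem cell markers (right), 1 point per mouse, coloured by group, with circles, squares and triangles for replicates 1, 2 and 3. Control replicate 3 (12590 Btnl counts, 440300 enterocyte marker counts) lies away from the other controls (6113 and 6918 Btnl counts).

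The proportions among the Btnl genes were examined within each library, where depth cancels. The log2 ratio of Btnl6 to Btnl1 normalised counts, not corrected for length, was -0.45 ± 0.20 in controls, -0.07 ± 0.11 in 18h-αGal and -0.56 ± 0.21 in 72h-αGal mice (SD, n = 3). All 3 18h-αGal mice had a higher ratio than any mouse of the other groups. The difference from control was 0.38, with a two-sided exact permutation p of 0.1, which is the lowest possible with 3 mice per group, and 0.3 after adjustment over 12 such tests. The log2 ratio of Btnl4 to Btnl1 was steadier, at -1.39 ± 0.056 in controls, -1.34 ± 0.0511 in 18h-αGal and -1.44 ± 0.169 in 72h-αGal mice, and no difference had an exact permutation p under 0.4.

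Tnfrsf14, Ceacam1 and Cdh1 did not pass the test at 18 h. Tnfrsf14 had 410.5, 482.2 and 575.3 normalised counts in controls and 689.2, 605.4 and 496.7 in 18h-αGal mice. These overlapped, with a log2 fold change of 0.31 ± 0.19 (95% interval -0.09 to 0.70; edgeR adjusted p = 0.384). Ceacam1 ranged from 16780 to 19970 in controls and from 15780 to 18530 in 18h-αGal mice, which gave a log2 difference of -0.07 ± 0.11 with a 95% interval of -0.30 to 0.17. Cdh1 ranged from 26500 to 29350 in controls and from 26950 to 27400 in 18h-αGal mice, which gave a log2 difference of -0.02 ± 0.10 with a 95% interval of -0.23 to 0.20. For Ceacam1 and Cdh1 these intervals leave no room for a change of 1.5-fold in either direction. The sign of both flipped without control replicate 3, where the log2 fold changes were 0.01 and 0.02. The log2 ratio of Ceacam1 to Cdh1 differed from control by -0.05 at 18 h and 0.02 at 72 h, with exact permutation p-values of 0.6 and 0.7. The log2 ratio of Icam1 to Cdh1, which sets Icam1 against an epithelial gene of the same library, was -10.46 ± 0.70 in controls and -8.22 ± 0.31 in 18h-αGal mice, without overlap (difference 2.24; exact permutation p = 0.1; 0.3 adjusted over the 12 tests).

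**Figure D4:**
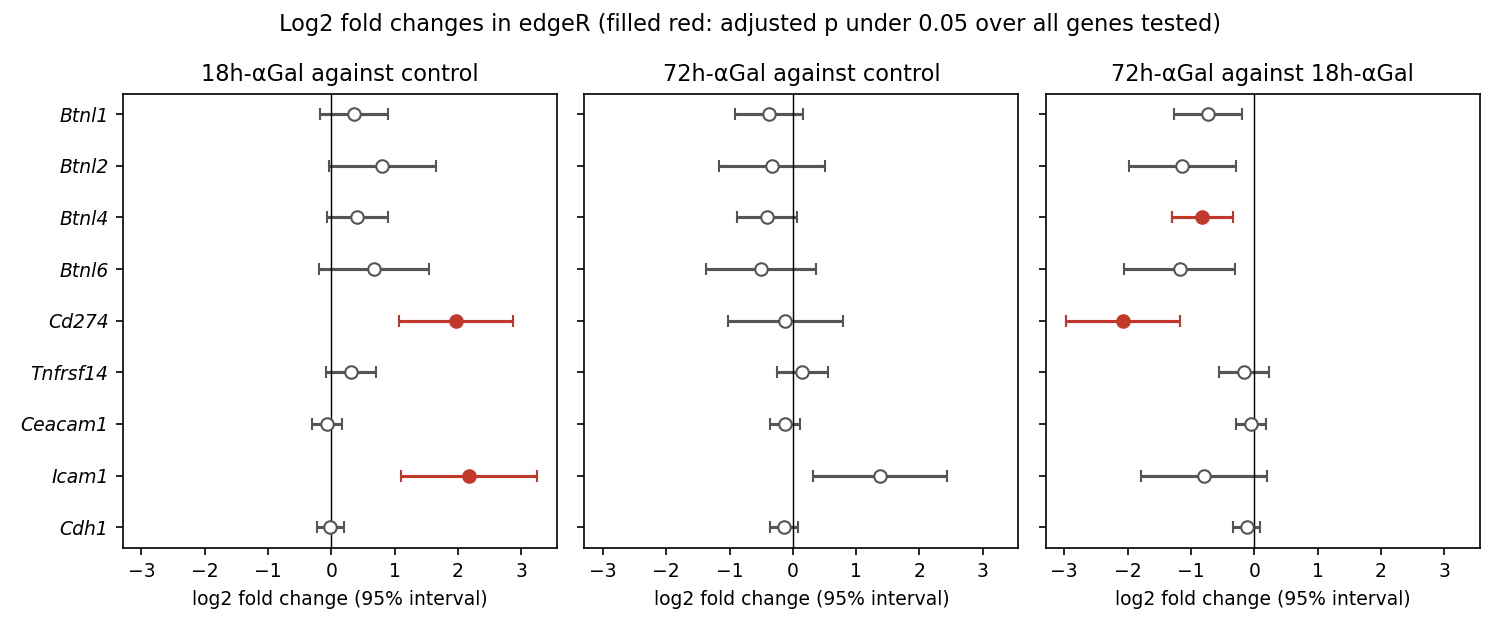
Log2 fold change of the 9 genes in the 3 comparisons (horizontal axis), with 95% intervals from edgeR; filled red points passed the test at an adjusted p under 0.05 over all genes tested, open points did not. Cd274 and Icam1 are filled at 18 h, no gene is filled at 72 h against control, and Cd274 and Btnl4 are filled, below 0, for 72h-αGal against 18h-αGal.

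At 72 h, the question was whether the ligands still differed from control. None of the 9 genes was called, where 0.0264% of all genes tested (5 genes) were. An unadjusted p under 0.05 was found for 1 of the 9, and for 1125 of all 18933 genes tested. No alternative, DESeq2 and the limma fit included, called any of the 9. The median log2 fold change of the 9 genes was -0.14, beside 0.00222 over all genes. The gene with the unadjusted p under 0.05 was Icam1, with 47.49, 41.35 and 69.91 normalised counts in 72h-αGal mice, each above the highest control value of 33.28. Its log2 fold change against control was 1.38 ± 0.50 (95% interval 0.32 to 2.44) with an edgeR adjusted p of 0.81. It was the only ligand gene whose 72h-αGal and control replicates did not overlap, where 12.7% of all genes tested did not. Cd274 had 23.17, 28.24 and 50.78 normalised counts, a range that spanned the control values, and a log2 fold change of -0.12 ± 0.42. The 4 Btnl genes had log2 fold changes between -0.50 and -0.33, with 95% intervals that all held 0. Beside them, all 16 enterocyte markers had log2 fold changes below 0 at 72 h, with a median of -0.77, none called in edgeR and 4 lower at an unadjusted p under 0.05.

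The third comparison, 72h-αGal against 18h-αGal, asked whether the ligands differed between the 2 times after αGalCer. The control mean is not part of it, but the control libraries entered the shared estimate of the spread behind its p-values. All 9 log2 fold changes were below 0, with a median of -0.80, beside 0.0456 over all genes. Cd274 and Btnl4 were called lower, 2 of 9, where 10.2% of all genes tested were called and 6.04% were called lower. Replicates did not overlap for 6 of the 9 (the 4 Btnl genes, Cd274 and Icam1), where 32.8% of all genes did not. Cd274 fell by 2.08 ± 0.42 on the log2 scale (95% interval -2.98 to -1.18; edgeR adjusted p = 0.00668) and was called in all 15 alternatives.

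Btnl4 fell by 0.82 ± 0.22 on the log2 scale (95% interval -1.30 to -0.34; edgeR adjusted p = 0.0332), from 1409, 1372 and 1838 normalised counts at 18 h to 1007, 970.2 and 627.7 at 72 h. The call was lost when any of these 6 libraries was left out, with edgeR adjusted p-values between 0.0534 (without 72h-αGal replicate 1) and 0.129 (without 72h-αGal replicate 3). Btnl1 had 2383, 2803 and 1826 normalised counts at 72 h, Btnl2 1608, 1981 and 973.6, and Btnl6 1683, 2151 and 1059, every value below the lowest at 18 h. Their log2 fold changes were -0.73 ± 0.24, -1.13 ± 0.36 and -1.18 ± 0.38, with edgeR adjusted p-values of 0.0854, 0.0977 and 0.0971. With all libraries, DESeq2 called these 3 genes lower (adjusted p = 0.0157, 0.0487 and 0.0477). An edgeR fit of only the 2 groups compared did so too (adjusted p = 0.0147, 0.0185 and 0.00877). The limma fit called Btnl2 and Btnl6 (adjusted p = 0.0247 and 0.0204) but not Btnl1 (0.0543). Btnl1, Btnl2 and Btnl6 were called in 3, 4 and 4 of 15 alternatives. Without control replicate 3, all 4 Btnl genes passed this comparison too, in a fit that also tested more genes (20326 in place of 18933), with edgeR adjusted p-values between 0.00481 and 0.0239. Their log2 fold changes were nearly the same in that fit, while their SEs were smaller, at 0.157 to 0.26. The part of cell composition in the Btnl differences was not tested. The stem cell marker sums were 61800 to 96320 at 72 h, above every 18h-αGal mouse (14710 to 45850). All 10 stem cell markers had log2 fold changes above 0, with a median of 1.04. In edgeR 1 of them was called higher, and 6 were higher at an unadjusted p under 0.05. DESeq2 called 5 higher and limma 3. Over all 18933 genes tested, 4593 had an unadjusted p under 0.05 in this comparison. The enterocyte marker sums were 111700 to 217200 at 72 h, below every 18h-αGal mouse. In edgeR none of the 16 enterocyte markers was called lower at 72 h than at 18 h, with 6 lower at an unadjusted p under 0.05. The only 1 called was Mep1a, higher at 72 h than at 18 h by a log2 fold change of 1.88 ± 0.22 (edgeR adjusted p = 0.000151; called in all 15 alternatives). Icam1 had a log2 fold change of -0.80 ± 0.47 (edgeR adjusted p = 0.324), and Tnfrsf14, Ceacam1 and Cdh1 had values between -0.16 and -0.05 with edgeR adjusted p-values of at least 0.525.

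The neighbours of the Btnl genes on chromosome 17 gave a local comparison. On the side of Btnl2 lie genes of antigen presentation. Of these, Tap2, a subunit of the peptide transporter for MHC class I, had a log2 fold change of 1.41 at 18 h (edgeR adjusted p = 0.0138), and the MHC class II gene H2-Eb1 had 3.20 (0.0435). The MHC class II genes H2-Ab1 and H2-Aa had log2 fold changes of 2.96 and 4.03 and did not pass (edgeR adjusted p = 0.0572 and 0.0832), and the long non-coding RNA gene Gm20513, whose span lies within that of H2-Eb1 on the opposite strand, had 3.87 (0.00303), although reads of these overlapping genes cannot be told apart. From Btnl2 to Rnf5, none of the 13 tested genes was called at 18 h with all libraries, and the 4 Btnl genes were called without control replicate 3, as given above. Among these were the pseudogenes Btnl5-ps at 0.27 and Btnl7-ps at 1.03. Btnl7-ps was called lower for 72h-αGal against 18h-αGal, at -1.93 ± 0.49 on the log2 scale (edgeR adjusted p = 0.034), a call that held in 7 of 15 alternatives.

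**Figure D5:**
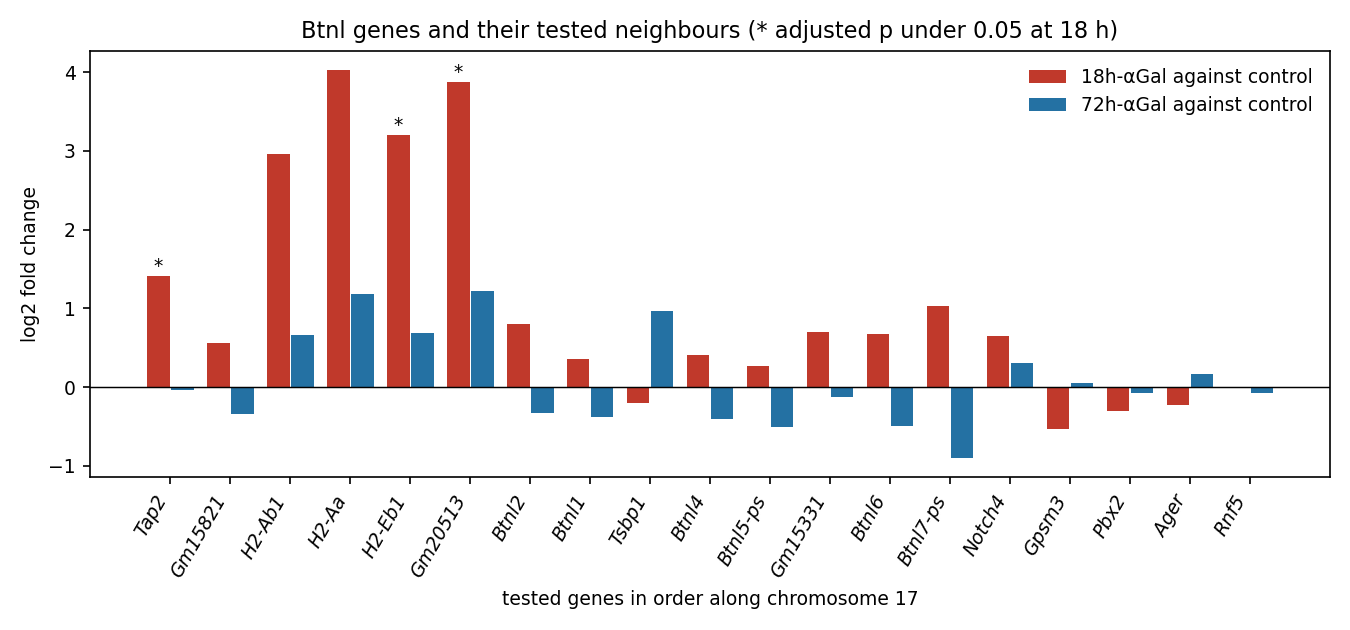
Log2 fold change against control at 18 h (red) and 72 h (blue) for the Btnl genes and their tested neighbours, in their order along chromosome 17; asterisks mark an adjusted p under 0.05 at 18 h. Tap2, H2-Eb1 and Gm20513 carry asterisks, at 1.41, 3.20 and 3.87, and no gene from Btnl2 onward does in this fit of all 9 libraries. Without control replicate 3, Btnl1, Btnl2, Btnl4 and Btnl6 passed the test at 18 h.

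Other ligands of the same kinds were taken from lists. Among 17 tested checkpoint and costimulatory ligands, 3 were called higher at 18 h and none lower, and the median log2 fold change was -0.10. Tnfsf10, which encodes the death receptor ligand TRAIL, had 2542, 2303 and 3124 normalised counts in controls and 5844, 5960 and 4560 in 18h-αGal mice, which gave a log2 difference of 1.05 ± 0.14 (edgeR adjusted p = 0.000528). Lgals9, which encodes galectin-9, a ligand of TIM-3 like Ceacam1, had 12270, 11510 and 18950 in controls and 28240, 30990 and 26940 in 18h-αGal mice, which gave a log2 difference of 1.02 ± 0.16 (edgeR adjusted p = 0.00235). Neither gene overlapped between these groups, and both calls held in all 15 alternatives. Nectin1, an adhesion molecule of the nectin family, rose by a log2 fold change of 0.46 ± 0.10 (edgeR adjusted p = 0.0142), a call lost without control replicate 1 or 2 or 18h-αGal replicate 1 (highest adjusted p 0.0608). At 72 h against 18 h, Tnfsf10 and Lgals9 fell by 0.99 and 1.12 on the log2 scale, and both calls held in all 15 alternatives.

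Of 15 tested ligands of NK cell and intraepithelial lymphocyte receptors, none was called at 18 h in edgeR, while 4 had an unadjusted p under 0.05, all higher. Over all genes tested, 3947 of 18933 had an unadjusted edgeR p under 0.05 at 18 h. The unadjusted counts of this and the following lists at 18 h are to be read beside that share. DESeq2 called 4 of the 15 ligands higher (H2-T23, H2-T22, H2-T10 and Clec2d) and limma called 2 of them (H2-T23 and H2-T22). H2-T23, which encodes Qa-1, the ligand of CD94-NKG2 receptors, had 761.8, 620.8 and 1878 normalised counts in controls and 2597, 2239 and 2380 in 18h-αGal mice. These did not overlap, yet the log2 fold change of 1.18 ± 0.37 did not pass (edgeR adjusted p = 0.116), and control replicate 3 was again the highest control. At 72 h H2-T23 had 755.2, 880.5 and 663 and was called lower than at 18 h, as was Clec2d, a ligand of the NKR-P1 receptors of NK cells, with log2 fold changes of -1.64 and -0.66. These calls held in 7 and 8 of 15 alternatives, and each was lost on leaving out any 72h-αGal library. None of 14 tested further adhesion ligands was called at 18 h by edgeR, DESeq2 or limma, with 2 higher and 1 lower at an unadjusted edgeR p under 0.05. The same 3 tools called none of 12 adherens junction partners at 18 h, with 2 higher at an unadjusted edgeR p under 0.05. Between 72 h and 18 h, Alcam fell by 0.52 and Cdh17, the intestinal cadherin, by 0.76 on the log2 scale (edgeR adjusted p = 0.0194 and 0.00989), and the latter held in all 15 alternatives. None of 3 tested further butyrophilin family genes was called at 18 h by any of these tools, and none had an unadjusted edgeR p under 0.05.

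Lymphocyte receptors of these ligands had few reads in the sorted cells. Of 12 such genes, 8 had a row in the count table and 5 passed the low-count filter, and none was called in any comparison by edgeR, DESeq2 or limma, with 1 higher at 72 h against control at an unadjusted edgeR p under 0.05. The 8 summed to 131 to 166.4 normalised counts in controls, 132.5 to 226.4 in 18h-αGal and 155.3 to 206.2 in 72h-αGal mice, from 70 to 349 raw reads per library. Itgae, which encodes the αE chain of the integrin that binds E-cadherin, Itgal, Itgb7 and Cd160 were above 0 in every library, with at most 96.1, 41.3, 54.8 and 51.1 normalised counts. Among transcription factors tied to the ligand genes, Irf1 and Hnf4g were each called in at least 1 comparison. Irf1, an interferon-induced activator, had 1634, 2214 and 2434 in controls and 3443, 3651 and 3473 in 18h-αGal mice, which gave a log2 difference of 0.76 ± 0.16 (edgeR adjusted p = 0.0136), lost without control replicate 1 or 18h-αGal replicate 2 (highest adjusted p 0.0763). Hnf4g, which encodes a nuclear receptor of enterocytes, was not called at 18 h and was lower at 72 h than at 18 h by a log2 fold change of -0.68 ± 0.19 (edgeR adjusted p = 0.043), a call that held in 7 of 15 alternatives. Hnf4g was also highest in control replicate 3 among controls, with 10870 against 7299 and 5938 normalised counts.

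The genes most like 8 of the 9 ligand genes across the 9 libraries were ranked by Pearson's r of log2 CPM among the genes with a mean of at least 100 counts (11149 for Cd274 and Icam1, 11148 for the others). These values describe libraries that share group and depth and carry no test. Btnl1 was most like Cers2 (r = 0.993), H2-T3 (0.992) and Trim31 (0.992). Btnl2 and Btnl6 shared Herc6 (0.988 and 0.994) and Ap2b1 (0.989 and 0.991), followed by Tstd3 (0.987) for Btnl2 and Tnfaip1 (0.99) for Btnl6. Cd274 was most like Mrpl18 (0.981), the interferon-induced GTPase gene Tgtp1 (0.963) and Eif2s1 (0.955), and Icam1 most like the MHC class I genes H2-Q6 (0.968) and H2-Q7 (0.958) and B4galt3 (0.937). Tnfrsf14 was most like Washc5 (0.958), Rfwd3 (0.957) and Rab3ip (0.94), Ceacam1 most like Kif1c (0.889), Ing3 (0.884) and Commd9 (0.871), and Cdh1 most like Edf1 (0.955), Ndufa1 (0.928) and Rps4l (0.918).

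Reads could be shared with other genes. Of the distinct 100-base words in the transcripts of Ceacam1, 15.8% also occurred in Ceacam2, which had between 39.38 and 90.51 normalised counts, far below the Ceacam1 values. For Cd274 the share was 10.5%, mostly with the opposite-strand gene Gm36043, which had at most 65.6 normalised counts in a library. Exons of Cd274 also overlapped those of Plgrkt, on the opposite strand, by 219 bases. Plgrkt had 595 to 1170 normalised counts, above the highest Cd274 value of 163.9. For Icam1 it was 7.98%, with the opposite-strand gene Gm47079, which had at most 11.4. Btnl1 shared 10.7% of its words with Gm65128, which had no row in the count table used here, and Btnl4 shared 3.16%, most of them with Gm65796, likewise without a row. Btnl6 shared 0.0605%, with Btnl7-ps, and Btnl2, Tnfrsf14 and Cdh1 shared none. The libraries were strand-directional but the strand setting of the counting was not given, so reads of Cd274 and Icam1 and of their opposite-strand partners cannot be told apart.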

How the data were processed

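Bulk RNA-seq was analysed from sorted crypt IECs of 9 mice, 3 per group (control, 18h-αGal and 72h-αGal). Per the labels and the study's methods, the authors made ribosomal RNA-depleted directional libraries and 100 bp reads, mapped them with HISAT2 and deposited raw read counts per gene. The submitters' processing notes also name featureCounts of Subread and DESeq2 1.42.0. They give the build as GRCm38 (mm10), whereas the study's methods give GRCm39. The counting settings and annotation release are not given in the sources used here. The authors also deposited normalised counts, a signal equal to the raw count divided by 1 DESeq2 size factor per library (largest relative difference from recomputed factors 1.1e-15).

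Of 29288 gene identifiers, 28480 matched GENCODE vM39 (98.4% of counts), which gave symbols, positions and exon lengths. The raw counts were tested with edgeR 4.0.16 in R 4.3.3, using filterByExpr, TMM and 1 quasi-likelihood fit (robust) with a mean for each of the 3 groups over all 9 libraries. P-values were adjusted by Benjamini-Hochberg over 18933 genes and called at an adjusted p under 0.05. SEs and 95% intervals came from the same fit, whose common dispersion was 0.123, and the procedure was tested on simulated data. Ratios of member pairs were compared by exact permutation tests.

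Alternatives were DESeq2 1.42.0, RLE scaling, no filter, only the 2 groups compared, a replicate block, a minimum log2 change of 1 in either direction, limma 3.58.1 on normalised counts, and leaving out each library. Of the 16, the fold limit changes only counts, which leaves 15 for a single gene. Correlations of deviations between same-numbered libraries lay between -0.15 and 0.115, so the numbers were not taken to pair mice. Between control and 18h-αGal they were all positive (0.0237, 0.0607 and 0.115). The replicate block was fitted over all 3 groups, and a pairing of control with 18h-αGal alone was not tested. Replicates differed by more than counting error (chi-square per degree of freedom 14.2 to 47.5). A floor of 3 counts per library was 0.0917 to 0.338 CPM and covers counting error only. Each library came from a different mouse, so p-values measure the spread between mice.

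The 9 genes and all gene lists were chosen with earlier results of these data known. Named in the text are all 9 genes, genes of the lists called in at least 1 comparison (up to 8 per list), and the 3 genes most like a member. Some genes and the results that need them are not reported here. Neighbours of the Btnl genes, genes of the lists named for comparison and the ratio to enterocyte markers were added after their values were seen.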

Additional observations from a re-analysis of the deposited data

Results flagged for a closer look

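For 2 of the 9 genes, the level at 72 h differed from the level at 18 h in the direct comparison of the αGalCer groups (edgeR, adjusted over all genes tested). Of all genes tested, 10.2% were called in this comparison and 6.04% were called lower. No control was taken at 72 h, so treatment and time of sampling cannot be told apart in this difference. The difference was -2.08 on the log2 scale for Cd274 (adjusted p = 0.00668), with all 3 72h-αGal mice below all 3 18h-αGal mice, and it held in all 15 alternatives. It was -0.82 for Btnl4 (adjusted p = 0.0332), again lower in 3 of 3 mice, and it held in 8 of 15 alternatives, whose adjusted p-values ranged from 0.00481 to 0.129. The groups hold 3 libraries each, so no library was tested for standing apart within its group.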

How the results depend on the processing

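Calls among the 9 genes rested on few libraries. At 18 h, 2 were called, and leaving out 1 library gave between 0 (without control replicate 1) and 6 (without control replicate 3); every alternative that kept all 6 libraries gave 2. At 72 h against control, 0 were called in each of the 16 alternatives. For 72h-αGal against 18h-αGal, 2 became 1 when a log2 change of at least 1 in either direction was also required (the fold limit), 5 with DESeq2, 4 with limma, 5 with only the 2 groups compared and 1 with the replicate block, and leaving out 1 library gave 1 to 5. Among all genes, the 1128 calls at 18 h became 426 with the fold limit and 593 with only the 2 groups compared (leaving out 1 library: 432 to 1556). The 5 at 72 h became 30 with DESeq2, 13 without the filter, 3 with limma and 1 with the replicate block (leaving out 1 library: 0 to 20). The 1936 for 72h-αGal against 18h-αGal became 682 with the fold limit (leaving out 1 library: 831 to 2593). The fold limit adds a criterion. The cause of the other changes was not tested.

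Directions turned only for values that were not called, most of them near 0. The furthest from 0 was Btnl2 at 72 h against control. Its log2 fold change was -0.33 with all libraries and 0.0794 without control replicate 3. Leaving out 1 library gave log2 fold changes at 18 h of -0.132 to 0.0145 for Ceacam1 and -0.0454 to 0.0171 for Cdh1. At 72 h it gave -0.562 to 0.0794 for Btnl2 and -0.54 to 0.0959 for Cd274, and for 72h-αGal against 18h-αGal -0.101 to 0.0147 for Ceacam1. The log2 ratio of Btnl6 to Btnl1 at 72 h ranged from -0.194 to 0.0103, and that of Ceacam1 to Cdh1 from -0.104 to 0.00586 at 18 h and from -0.00954 to 0.0628 at 72 h.

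With the replicate number as a block, all genes called were 781 at 18 h, 1 at 72 h and 1371 for 72h-αGal against 18h-αGal, and Btnl4 was no longer called in the last (adjusted p = 0.0756). Of 6 libraries, 5 correlated best with their own number between control and 18h-αGal and 0 in the other comparisons. Depth limits Cd274 and Icam1 most, with as few as 11 reads in a library.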
